A study of Mus musculus with 8 samples.

Results

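Sertoli cells are the somatic cells of the seminiferous tubule that nurse the germ cells. The genes followed here are 9 that mark them: the transcription factors Sox9, Sox8, Wt1, Gata4, Gata1, Nr5a1 and Rhox5, the receptor of follicle-stimulating hormone (Fshr) and the secreted ligand Dhh. Every probe set annotated with 1 of these symbols was used. This gave 8 probe sets of 35557 and 8 genes of 19938, 1 probe set per gene. No probe set carried the symbol of Rhox5, a homeobox gene that responds to androgen, and Rhox5 was not analysed here. Of the 8 measured genes, Fshr is the only one for a receptor of a circulating hormone, since Nr5a1, though a nuclear receptor by family, is classed as an orphan.

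In the fetal gonad, Sry switches on Sox9 in the supporting cells, Wt1, Gata4 and Nr5a1 act upstream and beside it, and Sox8 overlaps with Sox9 in keeping the Sertoli fate. In the adult, follicle-stimulating hormone from the pituitary acts on Sertoli cells through Fshr and cyclic AMP, and Dhh goes out to the Leydig and peritubular cells, which carry its receptor Ptch1. Several of these genes are not confined to Sertoli cells: Leydig cells also express Nr5a1 and Gata4, and red cell precursors express Gata1.

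Expression was profiled in whole testes of 5 Ing2-/- and 3 Ing2+/+ male mice aged 2 to 3 months. Each testis RNA was hybridized by itself to an Affymetrix Mouse Gene ST array, with no pooling. The Ing2-/- mice lacked exon 2 of Ing2, which encodes a chromatin reader of the Sin3-HDAC complex, in all tissues: the allele was made with EIIa-Cre, an early and general deleter, and Cre was bred out with C57BL/6J mice before the knockouts were generated. The deletion was therefore present in germ cells and Sertoli cells alike, and the RNA came from both. No treatment was given to either group.

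Levels are RMA values on the log2 scale, so a difference of 1 is a doubling of signal. RMA brings all arrays to one distribution, so a level is a share of the testis transcripts and not an absolute amount. The Ing2 probe set stood at 5.06, 5.64, 5.21, 5.29 and 5.25 in Ing2-/- replicates 1 to 5, against 7.43, 7.60 and 7.34 in Ing2+/+ replicates 1 to 3. It was lower by limma, with a difference of −2.16 (SE 0.13, adjusted p = 0.000395), and fits the labels in all 8 arrays. The 5 Ing2-/- arrays had medians of 6.46 to 6.53, and the 3 Ing2+/+ arrays had 6.41 to 6.45. Ing2-/- replicate 3 stood apart: across probe sets, its mean Pearson r with the other Ing2-/- arrays was 0.983, where the other Ing2-/- arrays had 0.990 to 0.992 within their group. Calls are given with all arrays first and then without this replicate. All 8 genes lay, on every array, above the median level of unnamed probe sets, those annotated with no symbol (5.54 to 5.62 in Ing2-/- and 5.47 to 5.51 in Ing2+/+ testes).

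All 8 genes were higher in every Ing2-/- array than in any Ing2+/+ array. Differences of the group means ran from 0.33 for Dhh to 0.95 for Fshr on the log2 scale. When the arrays were set to an equal median level of other Sertoli markers, 7 of the 8 turned below 0. The middle marker by mean level was Cldn11, which differed by 0.72, more than the median marker difference of 0.55. Relative to the mean of those markers, Fshr (0.42), Wt1 (0.05), Gata4 (0.02) and Nr5a1 (0.04) stayed above 0. Sox9, Sox8, Gata1 and Dhh lay below it. None of the 8 genes passed the test over the whole array with all 8 testes. By limma, 0 of 8 were called at a Benjamini-Hochberg adjusted p under 0.05. Of all genes, 1.97% were called higher, 3.01% lower and 4.98% in either direction. All 8 had an unadjusted limma p under 0.05 and were higher, as were 16.5% of all genes, and 0 had an unadjusted p under 0.001 by limma or by the random variance model of the methods. Groups that did not overlap, with Ing2-/- above Ing2+/+, were found in 16.7% of all genes. The median difference of the 8 genes was 0.51, beside 0.02 over all genes. Without Ing2-/- replicate 3 the median was 0.37, and 6 of 8 genes were called higher, where 8.72% of all genes were called higher and 7.76% lower. In whole tissue, a larger share of Sertoli cells and more RNA of these genes per cell cannot be told apart.

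**Figure D1:**
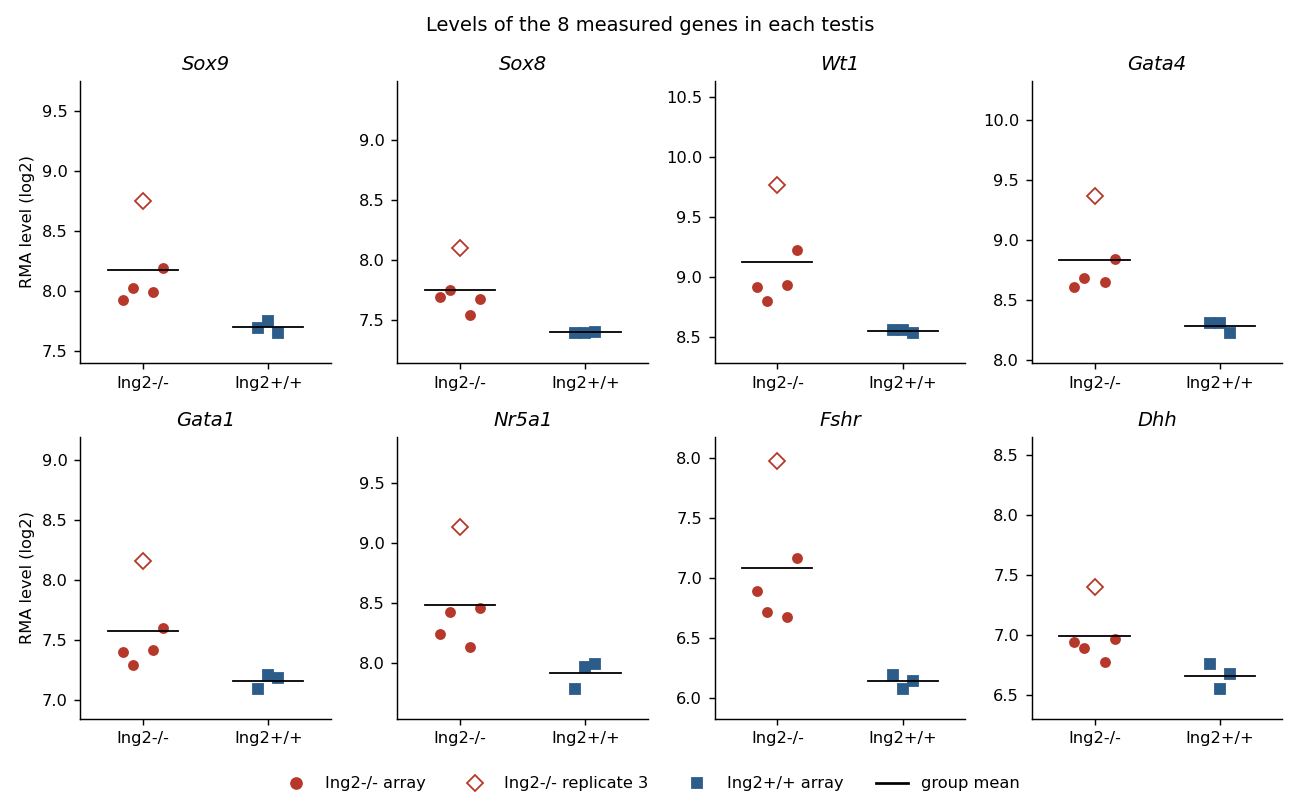
RMA level (log2) of the 8 measured genes in each testis. Filled circles are Ing2-/- arrays, the open diamond is Ing2-/- replicate 3, squares are Ing2+/+ arrays and bars are group means; each panel spans the same number of log2 units. In all 8 panels the 5 Ing2-/- arrays lie above the 3 Ing2+/+ arrays, and replicate 3 is the highest. With an equal median level of other Sertoli markers, a scale that follows the marker Cldn11, only Fshr keeps this direction of its mean difference.

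Sox9 and Sox8 are related HMG-box factors. Sox9, which directs the supporting cells to the Sertoli fate and turns on Amh, stood at 7.93, 8.02, 8.75, 7.99 and 8.19 in Ing2-/- replicates 1 to 5, against 7.69, 7.75 and 7.65 in Ing2+/+ replicates 1 to 3. Replicate 3 lay 0.55 above the next Ing2-/- array, and the lowest Ing2-/- array lay only 0.18 above the highest Ing2+/+ array. The difference was 0.48 (SE 0.17, adjusted p = 0.120 by limma) with all arrays and 0.33 (SE 0.07, adjusted p = 0.0246) without replicate 3.

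Sox8 stood at 7.69, 7.75, 8.10, 7.54 and 7.68 in the Ing2-/- arrays, against 7.39, 7.40 and 7.41 in the Ing2+/+ arrays. The Ing2+/+ arrays were almost level for this gene (SD 0.01, n = 3), and the Ing2-/- arrays spread 0.21 (SD, n = 5). Its difference of 0.36 (adjusted p = 0.0958 by limma) became 0.27 (adjusted p = 0.0305) without replicate 3. The within-array difference Sox9 minus Sox8 was higher by 0.12 in Ing2-/- testes, which did not pass an exact two-sided permutation test (p = 0.321) and overlapped between the groups, so an unequal change of the pair was not detectable with these arrays.

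Wt1, a zinc finger factor needed for gonad formation and for keeping adult Sertoli cells as such, stood at 8.92, 8.80, 9.77, 8.93 and 9.23 in Ing2-/- testes and at 8.56, 8.56 and 8.54 in Ing2+/+ testes. The Ing2+/+ arrays again lay within 0.02 of each other, and 2 of the 5 Ing2-/- arrays, replicates 3 and 5, lay above 9. The difference was 0.58 (SE 0.20, adjusted p = 0.106 by limma) with all arrays, and 0.42 (SE 0.10, adjusted p = 0.0278) without replicate 3.

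Gata4 and Gata1 are zinc finger factors that bind the same kind of site. Gata4, which acts in the fetal gonad and in adult Sertoli and Leydig cells, stood at 8.61, 8.68, 9.37, 8.65 and 8.85 in Ing2-/- testes, against 8.31, 8.31 and 8.23 in Ing2+/+ testes. It was the gene with the smallest exact two-sided permutation p of the 8 (0.0179, the smallest that 56 splits of 5 and 3 arrays can give). Its difference of 0.55 (SE 0.16, adjusted p = 0.0797 by limma) became 0.42 (SE 0.07, adjusted p = 0.0117) without replicate 3.

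Gata1, expressed in mouse Sertoli cells from before puberty and in a stage-dependent manner in the adult, stood at 7.40, 7.29, 8.16, 7.42 and 7.60 in Ing2-/- testes, against 7.10, 7.21 and 7.18 in Ing2+/+ testes. The groups were close here, with Ing2-/- replicate 2 only 0.08 above Ing2+/+ replicate 2. The difference of 0.41 had the largest adjusted p of the 8 genes (0.172 by limma), and Gata1 was 1 of the pair not called without replicate 3 (0.27, adjusted p = 0.0629). Gata4 minus Gata1, within arrays and relative to the Ing2+/+ mean, was 0.09 to 0.27 in Ing2-/- testes, against −0.07 to 0.09 in Ing2+/+ testes. This difference of 0.14 had an exact permutation p of 0.0357, did not pass after adjustment over the 2 pairs that could be run (0.0714), and the groups overlapped.

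Because Gata1 also marks red cell precursors, erythroid genes were read beside it. Of the 12 listed, 5 were measured and 0 were called. Alas2, the first enzyme of heme synthesis in erythroid cells, was higher by 0.46 (adjusted p = 0.0531 by limma), and Klf1, the erythroid Kruppel-like factor, also by 0.46 (adjusted p = 0.0545). Without Ing2-/- replicate 3 both were called higher (Alas2 0.51, adjusted p = 0.0221, and Klf1 0.50, adjusted p = 0.0224). The rest of the measured erythroid genes lay slightly below 0 with all arrays: Epor (−0.01), Slc4a1 (−0.02) and Epb42 (−0.07). The median of the list was −0.01. The mean of the 5 genes relative to Ing2+/+ was highest in Ing2-/- replicate 2 (0.29) and 0.13 in replicate 3, whereas Gata1 was lowest in replicate 2 and highest in replicate 3. Their part in the Gata1 difference was not tested.

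Nr5a1, the steroidogenic factor of Sertoli, Leydig and adrenal cells, stood at 8.24, 8.43, 9.14, 8.14 and 8.45 in Ing2-/- testes, against 7.79, 7.97 and 7.99 in Ing2+/+ testes. Replicate 3 lay 1.22 above the Ing2+/+ mean, the other Ing2-/- arrays 0.22 to 0.54. Its difference of 0.56 (SE 0.20, adjusted p = 0.117 by limma) became 0.40 (SE 0.10, adjusted p = 0.0303) without replicate 3. Leydig markers moved with it. Of 15 listed, 11 were measured. Of these, 5 were called higher with all arrays, beside 1.97% of all genes, and 7 without Ing2-/- replicate 3, beside 8.72%. Those called with all arrays include the steroid enzymes Hsd17b3 (0.94, adjusted p = 0.0461), Cyp11a1 (0.83, adjusted p = 0.0402), Hsd3b1 (0.80, adjusted p = 0.0360) and Cyp17a1 (0.60, adjusted p = 0.0451). The mean of the 11 relative to Ing2+/+ was 0.28 to 1.11 in Ing2-/- arrays, against −0.04 to 0.03 in Ing2+/+ arrays, and Akr1c14 lay below the median of the unnamed probe sets throughout. These calls, like every other call in the gene lists below, were lost without Ing2+/+ replicate 1 or 2. The part of Leydig cells in the Nr5a1 and Gata4 differences was not tested.

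**Figure D2:**
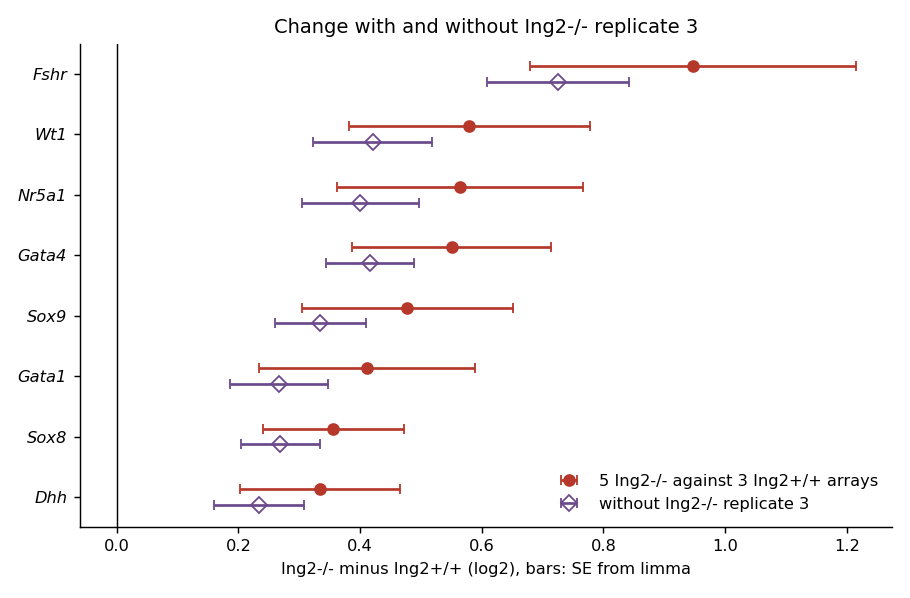
Difference Ing2-/- minus Ing2+/+ (log2) for the 8 genes, ordered by size, with bars of 1 SE from limma. Circles use all 8 arrays and diamonds leave out Ing2-/- replicate 3. Every value is above 0 on the deposited scale. With an equal median level of other Sertoli markers, a scale that follows the marker Cldn11, only the Fshr value is above 0. The diamonds lie 0.09 to 0.22 to the left of the circles, and their bars are shorter.

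Fshr showed the largest difference of the 8. The receptor stood at 6.89, 6.71, 7.97, 6.68 and 7.17 in Ing2-/- testes, against 6.19, 6.08 and 6.14 in Ing2+/+ testes. The lowest Ing2-/- array lay 0.48 above the highest Ing2+/+ array, the widest gap among the 8 genes. Fshr averaged 7.08 ± 0.53 in Ing2-/- testes (SD, n = 5) and 6.14 ± 0.06 in Ing2+/+ testes (SD, n = 3). The difference of 0.95 (95% confidence interval 0.34 to 1.55), or 1.93-fold, ranked 23 among the increases of 19938 genes, but its adjusted p was 0.0722 by limma and its exact permutation p 0.0357. Without replicate 3 the difference was 0.73, or 1.65-fold, and the call passed (adjusted p = 0.00976). Fshr also passed, just, in a fit restricted to probe sets above the median level (adjusted p = 0.04985). Lhcgr, the receptor of luteinizing hormone on Leydig cells, had no probe set of its own and was not analysed here.

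Promoter sequences of 250 bases before and 50 after the start were found in RefSeq (GRCm38.p6) for 5 of the 9 genes, Fshr, Sox8, Dhh, Gata1 and Rhox5. They were searched on both strands for AGATAA or TGATAA, read by GATA factors, ACAATG or ACAAAG, read by SOX factors, AAGGTCA, read by Nr5a1 and its relatives, CACGTG, an E-box, and TGACGTCA, a cyclic AMP response element. The only match was CACGTG, in Fshr and in Sox8, and both windows are shown for it, with the match in capitals. It starts 61 bases before the start of Fshr (chr17:89200626-89200925, minus strand) and 152 bases before that of Sox8 (chr17:25570637-25570936, minus strand).
Fshr: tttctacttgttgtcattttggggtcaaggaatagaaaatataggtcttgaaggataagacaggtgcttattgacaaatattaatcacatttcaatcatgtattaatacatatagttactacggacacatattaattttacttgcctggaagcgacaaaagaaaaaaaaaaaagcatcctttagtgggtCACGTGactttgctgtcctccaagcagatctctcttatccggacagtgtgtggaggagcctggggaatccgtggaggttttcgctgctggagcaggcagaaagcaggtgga
Sox8: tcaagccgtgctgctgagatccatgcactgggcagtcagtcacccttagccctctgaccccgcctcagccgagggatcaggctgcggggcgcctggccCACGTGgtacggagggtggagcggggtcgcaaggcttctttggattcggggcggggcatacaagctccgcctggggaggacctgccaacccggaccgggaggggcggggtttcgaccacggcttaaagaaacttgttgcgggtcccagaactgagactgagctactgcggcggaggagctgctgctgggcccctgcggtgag
The E-box is a known element of rodent Fshr promoters and is bound by upstream stimulatory factors. CACGTG was present in 7.15% of 32851 mouse promoter windows of this length, the GATA words in 18.6%, the SOX words in 28.6%, AAGGTCA in 4.72% and TGACGTCA in 1.79%. A match is a description of the letters, and the arrays hold no measurement of binding. GC content was 40.7% in the Fshr window and 66.3% in that of Sox8.

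Genes of FSH signalling, downstream of the receptor, were read beside Fshr. Of 26 listed, 23 were measured: cyclase, kinase A, CREB, phosphodiesterase, arrestin and adaptor genes, with no G protein gene among them. With all arrays 0 were called, and the median difference was 0.11. An unadjusted limma p under 0.05 was found for 5 with a higher and 3 with a lower level. The smallest p-values belonged to regulatory subunits of protein kinase A, Prkar1b (−0.29, adjusted p = 0.0562 by limma) and Prkar2a (−0.58, adjusted p = 0.0794), both with Ing2-/- below Ing2+/+ in all arrays. Without Ing2-/- replicate 3 both were called lower (Prkar1b −0.27, adjusted p = 0.0406, and Prkar2a −0.43, adjusted p = 0.00898), and the cyclase Adcy9 was called higher (0.38, adjusted p = 0.0289). Prkar2a was lowest in Ing2-/- replicate 3, where the mean of the round spermatid markers was lowest too. The part of germ cells in the differences of this list was not tested. Other hormone receptors gave 0 called of 23 measured (26 listed) with all arrays, and 3 called higher and 3 lower without Ing2-/- replicate 3, with a median of 0.11 over all arrays. Of the 23, 16 had a difference above 0. The largest was that of Igf1r (0.87, adjusted p = 0.0794 by limma), which was called higher without the replicate (0.65, adjusted p = 0.0126). Acvr2a, an activin receptor, differed by −0.39 (adjusted p = 0.0583) and was called lower without the replicate (−0.35, adjusted p = 0.0402). Thrb, a thyroid hormone receptor, differed by 0.30 (adjusted p = 0.0695, and 0.0566 without the replicate), though Thrb lay below the median of the unnamed probe sets in all Ing2+/+ arrays.

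Dhh, the hedgehog ligand that Sertoli cells secrete, stood at 6.94, 6.89, 7.40, 6.78 and 6.97 in Ing2-/- testes, against 6.76, 6.56 and 6.68 in Ing2+/+ testes. It had the smallest difference of the 8 genes and the narrowest gap between groups, with Ing2-/- replicate 4 only 0.02 above Ing2+/+ replicate 1. The difference was 0.33 (SE 0.13, adjusted p = 0.145 by limma), and 0.23 (adjusted p = 0.0728) without replicate 3. On the receiving side, Ptch1, both the receptor and a transcriptional target of the pathway, averaged 8.11 in Ing2-/- and 7.36 in Ing2+/+ testes, a difference of 0.75 (adjusted p = 0.0930). Smo, the transducer that Ptch1 holds in check, differed by 0.41 (adjusted p = 0.0956). Without replicate 3 both were called higher (Ptch1 0.57, adjusted p = 0.0317, and Smo 0.30, adjusted p = 0.0145). They were the only 2 of the 19 measured hedgehog genes (20 listed) called in that fit, in which 8.72% of all genes were called higher, and with all arrays 0 were. The other ligands and the Gli effectors had differences of 0.10 or less, with Shh at 0.07, Ihh at 0.09, Gli1 at 0.10, Gli2 at 0.05 and Gli3 at 0.09. Elsewhere in the list Gas1 differed by 0.30 (adjusted p = 0.102 by limma, and 0.0629 without replicate 3) and Sufu by −0.16. The median of the list was 0.07.

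**Figure D3:**
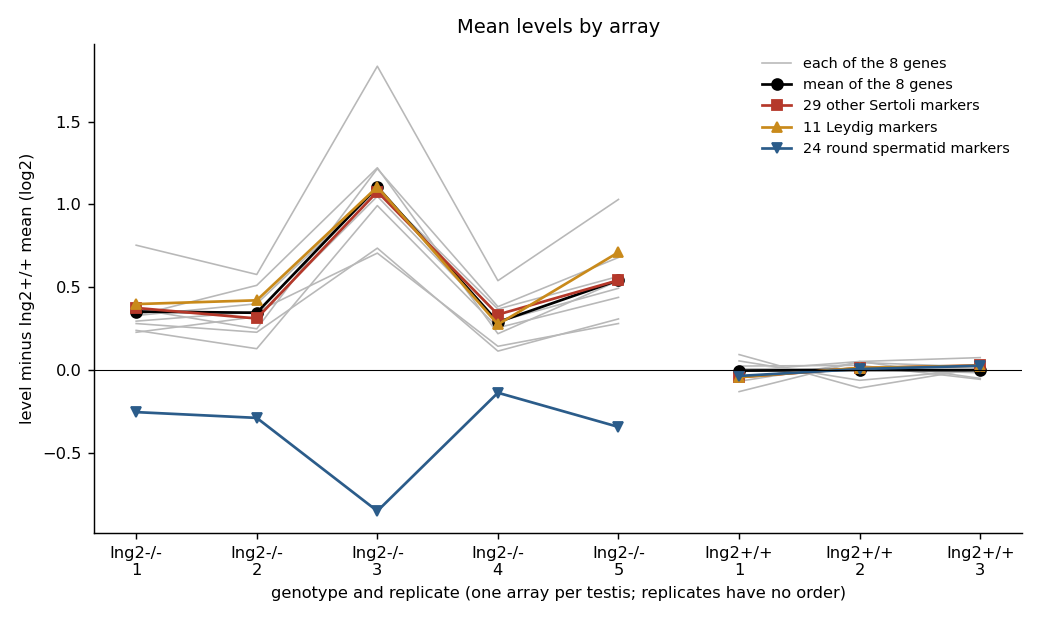
Level minus the Ing2+/+ mean (log2) in each array, for each of the 8 genes (grey), their mean (black) and the means of 29 other Sertoli, 11 Leydig and 24 round spermatid markers. The first 3 means peak in Ing2-/- replicate 3, at 1.11, 1.08 and 1.11, where the round spermatid mean has its lowest value, −0.85; lines join replicates only to guide the eye.

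The 8 genes shared their highest testis, and the order of the other Ing2-/- testes varied with the gene. Their mean lay 0.35, 0.35, 1.11, 0.29 and 0.54 above the Ing2+/+ mean in Ing2-/- replicates 1 to 5. Replicate 3 was highest for 8 of 8 genes and replicate 5 second for 7 of 8, the exception being Sox8, where replicate 2 was second. The lowest was replicate 1, 2 or 4, depending on the gene. Other Sertoli markers gave much the same profile, 0.38, 0.31, 1.08, 0.34 and 0.54. These are markers chosen without the 8 genes, such as the inhibin subunit Inha, the tight junction protein Cldn11, the intermediate filament Vim and clusterin. Of 30 listed, 29 were measured, and all 29 had a difference above 0, with a median of 0.55. In 23 of the 29 the groups did not overlap, with Ing2-/- above Ing2+/+, as in 16.7% of all genes. Serpina5, a serine protease inhibitor (1.20, adjusted p = 0.0458 by limma), and Defb36, a beta-defensin (0.69, adjusted p = 0.0240), were called higher with all arrays, and 18 were without replicate 3. Of all genes, 1.97% were called higher with all arrays and 8.72% without replicate 3. Il1a lay below the median of the unnamed probe sets on every array, and Amh, which adult Sertoli cells keep at a low level, at 5.69 in Ing2-/- and 5.54 in Ing2+/+ testes, lay close to it.

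Marker means of meiotic and later germ cells were lower in the 5 Ing2-/- arrays than in the 3 Ing2+/+ arrays, though few single markers were called with all arrays. The mean of 24 round spermatid markers lay between −0.85 and −0.14 in Ing2-/- arrays and between −0.03 and 0.03 in Ing2+/+ arrays, lowest in replicate 3, and 1 was called lower, Catsper1, a sperm calcium channel subunit (−0.74), beside 3.01% of all genes. Without replicate 3, 10 of the 24 were called lower, beside 7.76% of all genes. Elongating spermatid markers (22 measured, 0 called with all arrays and 4 lower without replicate 3) ranged between −0.68 and −0.13 in Ing2-/- arrays and between −0.04 and 0.04 in Ing2+/+ arrays; those with the smallest p were Tssk6, a spermatid kinase, and Akap4, a protein of the sperm tail. Pachytene spermatocyte markers (19 measured of 20 listed) ranged between −0.46 and −0.06 in Ing2-/- arrays and between −0.02 and 0.02 in Ing2+/+ arrays, with 1 called lower, Hspa2, a chaperone of meiotic cells, and 2 without replicate 3. Of these markers 1 round spermatid and 3 pachytene genes had a difference above 0. The part of the germ cell share in the level of the 8 genes was not tested. With the median level of the other Sertoli markers set equal in all arrays, the median difference of all probe sets was −0.69. On that scale 7 of the 8 genes had a difference below 0, between −0.38 for Dhh and −0.14 for Wt1, while Fshr stayed above 0 (0.23). It moves every difference down by the same amount, here that of Cldn11 (0.72), the middle marker by mean level. None of the 8 was called on that scale.

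**Figure D4:**
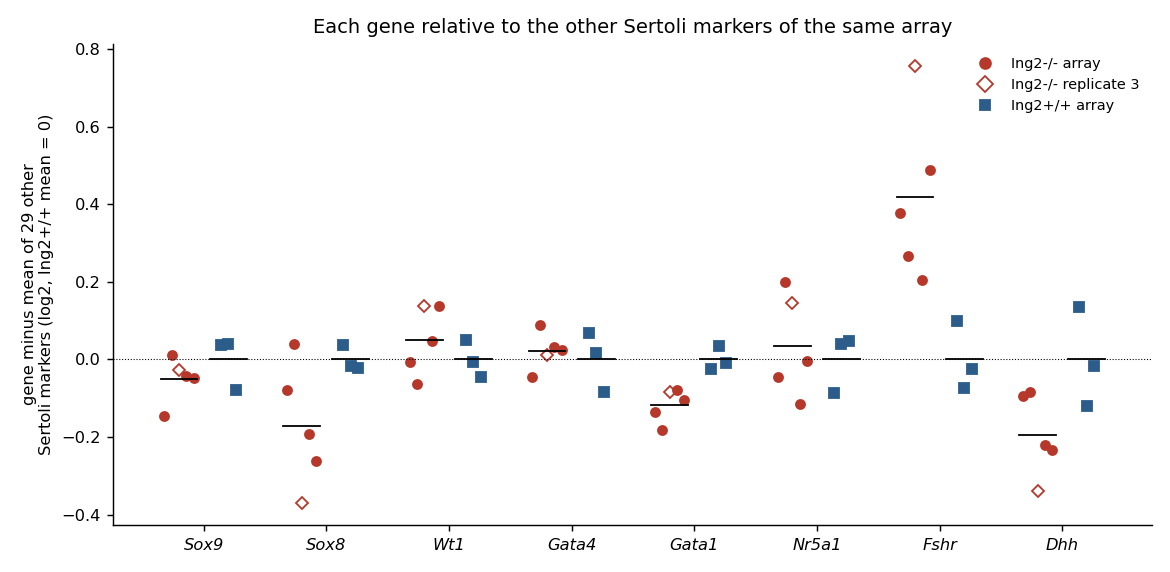
Level of each gene minus the mean of the 29 other Sertoli markers of the same array (log2, set to 0 for the Ing2+/+ mean). Circles and the open diamond are Ing2-/- arrays, squares Ing2+/+ arrays and bars group means; Fshr lies above the Ing2+/+ arrays in all 5 Ing2-/- arrays and Gata1 below them.

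To ask which genes departed from the other Sertoli markers, each gene was taken relative to the mean of the 29 in the same array. Fshr exceeded it by 0.38, 0.27, 0.76, 0.20 and 0.49 in Ing2-/- replicates 1 to 5, against 0.10, −0.07 and −0.02 in Ing2+/+ replicates 1 to 3. The groups did not overlap, and the difference was 0.42 with an exact two-sided permutation p of 0.0357. Gata1 fell short of it by a little in all 5 Ing2-/- arrays (−0.14, −0.18, −0.08, −0.08 and −0.10), against −0.02, 0.03 and −0.01 in Ing2+/+ arrays, a difference of −0.12 (exact permutation p = 0.0179). Neither passed adjustment over the 8 genes (adjusted p = 0.143 for both). Single markers among the 29 differed between the genotypes by 0.05 to 1.20, a range that holds Fshr (0.95) and Gata1 (0.41). Dhh (−0.19, exact permutation p = 0.0714) and Sox8 (−0.17, exact permutation p = 0.143) overlapped between groups. Sox9 (−0.05), Wt1 (0.05), Gata4 (0.02) and Nr5a1 (0.04) lay within 0.06 of the other markers. Relative to the median of the 29 markers in place of their mean, the difference was 0.23 for Fshr (exact permutation p = 0.143) and −0.31 for Gata1 (exact permutation p = 0.0179). That median is taken over levels and follows its middle marker, Cldn11. Cldn11 differed by 0.72, more than the median marker difference of 0.55.

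Families and partners of the 8 genes were read next, with no test against the 8. Of 17 other Sox genes, 0 were called higher and 2 lower: Sox5, of which spermatids carry a short form (−0.50, adjusted p = 0.0306 by limma), and Sox17, an endoderm and endothelial factor (−0.49, adjusted p = 0.0320), with a median of −0.05. The fit without Ing2-/- replicate 3 called 1 higher and 3 lower. The 10 Gata factors and cofactors gave 0 calls with and without that replicate, and a median of −0.06. Gata6, the GATA factor that Sertoli and Leydig cells share with Gata4, differed by 0.32 (adjusted p = 0.0940), and Gata3 by −0.27 (adjusted p = 0.126). Among 8 measured Rhox genes (30 listed) 0 were called with all arrays. Rhox8, a Sertoli homeobox gene of the same X-linked cluster as Rhox5, averaged 9.22 ± 0.38 in Ing2-/- testes (SD, n = 5) and 8.53 ± 0.09 in Ing2+/+ testes (SD, n = 3), a difference of 0.69 (adjusted p = 0.0732), and was called higher without the replicate (0.53, adjusted p = 0.00615). Rhox11 differed by −0.33 (adjusted p = 0.0539), was called lower without the replicate (−0.31, adjusted p = 0.0394), and lay below the median of the unnamed probe sets in all Ing2-/- arrays.

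Other gonadal transcription factors (23 measured of 26) had a median of 0.02, with 0 called higher and Emx2, a homeobox factor of the early gonad, called lower (−0.90, adjusted p = 0.0242), although it lay below the median of the unnamed probe sets in 3 of 5 Ing2-/- arrays. Leaving out Ing2-/- replicate 3 gave 5 called higher and 1 lower. Partners and targets in sex determination (15 measured of 16) gave 0 calls, 3 higher without that replicate, and a median of 0.23. Those with the smallest p were Gadd45g, which acts upstream of Sry through p38 signalling (0.23, adjusted p = 0.0697), and Nr0b1, the orphan receptor that antagonizes Nr5a1 (0.59, adjusted p = 0.0831), both among those 3. Androgen-dependent Sertoli genes (11 measured) had a median of 0.41, with 0 called higher and 1 lower, Ncam1, an adhesion molecule (−0.43, adjusted p = 0.0258), and 4 higher and 1 lower without that replicate. Calls in the lists depended on single arrays: 15 genes over all lists were called with all arrays, 79 without Ing2-/- replicate 3, 5 without Ing2-/- replicate 1 or 2, 1 without Ing2-/- replicate 5 or Ing2+/+ replicate 3, and 0 without Ing2+/+ replicate 1 or 2.

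**Figure D5:**
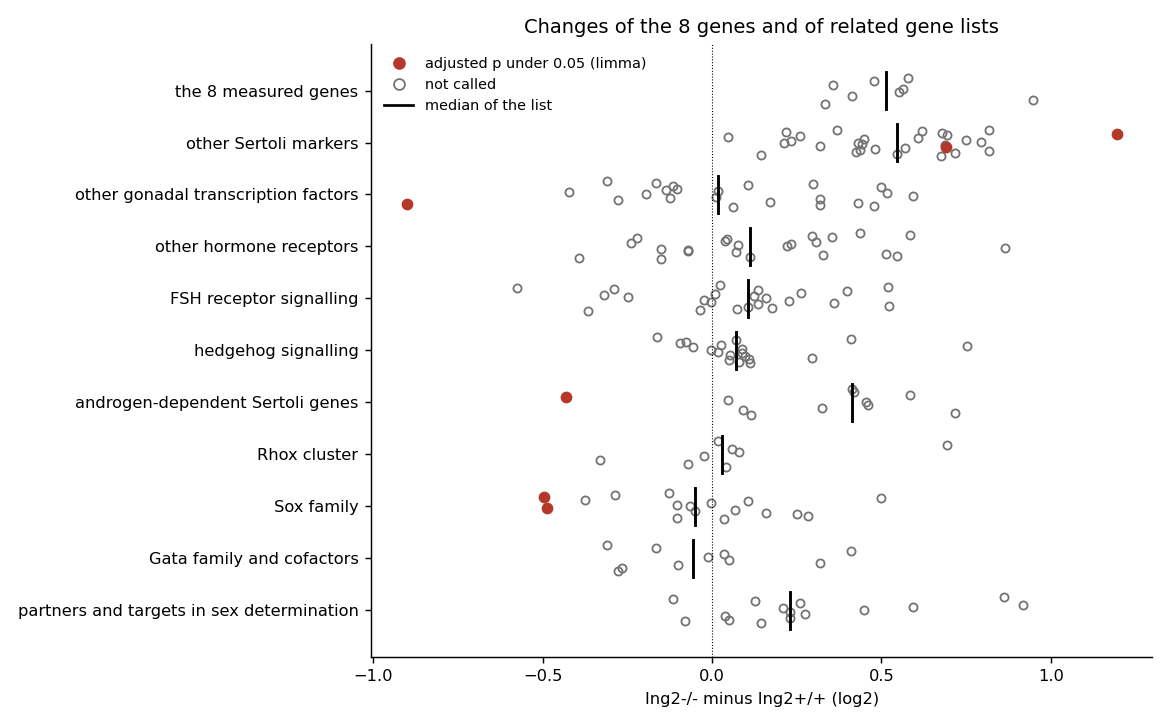
Difference Ing2-/- minus Ing2+/+ (log2) of every measured gene in the 8 genes and 10 related lists, 1 point per gene, with filled points for genes called by limma at an adjusted p under 0.05 and a bar at each median. The medians of the 8 genes (0.51) and of the other Sertoli markers (0.55) lie to the right of those of the Sox (−0.05) and Gata (−0.06) families.

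Genes with a profile most like that of the 8 were sought by the root mean square difference from their mean profile over the 8 arrays, among 14807 genes above the median of the unnamed probe sets in both genotypes. The closest were Itgav (0.02 on the log2 scale), an integrin subunit, Stard8 (0.03), Igf1 (0.03), the insulin-like growth factor, Spin1 (0.03), Tfe3 (0.03), a basic helix-loop-helix factor, Septin9 (0.04), Uxs1 (0.04) and Lpar3 (0.04), a lysophosphatidic acid receptor. Their own differences lay between 0.49 for Septin9 and 0.54 for Spin1, with replicate 3 between 1.07 and 1.17 above the Ing2+/+ mean. None was called by limma with all arrays, and all 8 were called higher without replicate 3, with adjusted p-values of 0.0127 to 0.0171. The genes were picked by their profile over these same arrays. Their differences, their replicate 3 values and their calls follow from that choice and are no separate result.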

How the data were processed

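The authors deposited log2 values that they had normalized by RMA in Affymetrix Expression Console, a method that subtracts background, normalizes by quantiles and combines probes into 1 value per probe set. Scanner files were not used here. Names came from the platform annotation, with symbols updated through the RefSeq table of GRCm38.p6. Of the probe sets, 21789 carried 1 symbol, 1621 several and 12147 none. Where a gene had more than 1 probe set (999 genes), the brightest stood for it. The genotypes were compared by limma (version 3.58.1, R 4.3.3), a linear model per probe set with moderated variances and without covariates. Its p-values were adjusted by Benjamini-Hochberg over the whole table of 35557. Single values were compared by exact two-sided permutation over the 56 splits of the arrays. The p-values measure the spread between these mice only, and the number of arrays limits the precision. Figures were drawn with matplotlib 3.10.9.

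The genes and lists were chosen with earlier results of these data known. The 19 lists were marker genes of 10 cell types and stages of the testis, together with pathway and family lists. In each, up to 4 called genes of largest change were named, or else the 2 of smallest p, besides Ing2 and the 8 genes of most similar profile. Further genes were named in some lists. As alternatives, the fit was repeated with the replicate block, without each array, with probe set filters, cyclic loess, with an equal median of Sertoli markers, with 3 other variance models, averaging a gene's probe sets and with a 1.5-fold minimum. Limma with array weights gives arrays that differ from their group less weight.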

Additional observations from a re-analysis of the deposited data

Results flagged for a closer look

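In each case below, the gap between the outermost Ing2-/- array and the nearest other Ing2-/- array, as a share of the range of the 5 Ing2-/- arrays, exceeded the critical value of Dixon's test (0.710 for 5 samples). This was so for 11 of 81 values tested. Chance alone flags about 1 in 20 groups, and the values are not independent of each other. The 8 Sertoli genes themselves stayed under the critical value, with shares of 0.554 for Wt1 to 0.689 for Gata4.

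Ing2-/- replicate 3 was the outermost array in 10 of the 11. It was highest for Rhox8 (9.89, the other Ing2-/- arrays at 8.96 to 9.13, share 0.820) and for Smo (7.46, the others at 6.85 to 6.97, share 0.803). It was also highest for 3 of the genes with a profile like that of the Sertoli genes, Septin9 (share 0.778), Tfe3 (0.767) and Spin1 (0.763). Those 3 were picked for likeness to a mean profile that is itself highest in replicate 3. Their flags follow from that choice and do not compare with the chance rate. Replicate 3 was lowest for Prkar2a (8.90, the others at 9.51 to 9.73, share 0.738). Among the list means relative to Ing2+/+, it was highest for other gonadal transcription factors (0.23, the others at −0.04 to 0.02, share 0.796), for partners and targets in sex determination (0.58, the others at 0.15 to 0.27, share 0.728) and for peritubular myoid markers (0.41, the others at 0.08 to 0.18, share 0.711). It was lowest for round spermatid markers (−0.85, the others at −0.34 to −0.14, share 0.711).

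The within-array difference Gata4 minus Gata1 was highest in Ing2-/- replicate 2, at 0.27 relative to the Ing2+/+ mean, with the other Ing2-/- arrays at 0.09 to 0.13 (share 0.794).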

How the results depend on the processing

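The 8 Sertoli genes kept a difference above 0 in every fit but the one with an equal median of Sertoli markers, and the call depended on Ing2-/- replicate 3. With each array left out, 0 to 6 of the 8 were called; only the fit without that replicate called any. Array weights called 6 and a fit of probe sets above the median level called 1, Fshr. Over all probe sets 1713 were called (635 higher, 1078 lower), 49 to 5006 with an array left out, 6565 with array weights, 877 at 1.5-fold, and 26869 with an equal median of Sertoli markers (10 higher, 26859 lower). Cyclic loess gave 480 higher and 1502 lower. Shared replicate numbers did not pair the samples (correlations of deviations −0.06, 0.18 and 0.01), and the replicate block called 0 probe sets and 0 list genes. Of list genes 15 were called, 0 to 79 with an array left out, 28 above the median level, 29 with 1-symbol probe sets, 29 with the mean of all probe sets, 194 with an equal Sertoli median, 97 with array weights and 8 at 1.5-fold.

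Relative to the other Sertoli markers, 2 genes had an unadjusted exact permutation p under 0.05, 1 or 2 with an array left out and 4 relative to the median of the markers. Against that median Wt1 (−0.14), Gata4 (−0.17) and Nr5a1 (−0.15) reversed, and with an array left out Nr5a1 ranged between −0.0078 (without Ing2+/+ replicate 1) and 0.0736 and Gata4 between −0.0197 (without Ing2+/+ replicate 3) and 0.0557; Nr5a1 also reversed without Ing2-/- replicate 2 (−0.0052). Of the 2 related pairs, 1 had such a p, 0 or 1 with an array left out and 0 after cyclic loess. Fshr minus Lhcgr was not run.

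With an equal median of Sertoli markers, these differences turned below 0: Sox9 (−0.24), Sox8 (−0.36), Wt1 (−0.14), Gata4 (−0.17), Gata1 (−0.31), Nr5a1 (−0.15), Dhh (−0.38), Defb36 (−0.027), Thrb (−0.42), Smo (−0.31), Rhox8 (−0.023), Gata6 (−0.40), Gadd45g (−0.49), Nr0b1 (−0.13), Cyp17a1 (−0.12), Smtn (−0.42), Kdr (−0.23), Mrc1 (−0.32), Cd68 (−0.34), Alas2 (−0.26), Klf1 (−0.26), Itgav (−0.19), Stard8 (−0.21), Igf1 (−0.20), Spin1 (−0.18), Tfe3 (−0.22), Septin9 (−0.23), Uxs1 (−0.19) and Lpar3 (−0.21). On that scale each array was shifted by its own median marker level, so every difference moved down by the same amount. The middle marker by mean level in both genotypes was Cldn11, which differed by 0.72, where the median of the marker differences was 0.55.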

Other observations

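Other somatic cells of the testis had marker medians below those of the Sertoli (0.55) and Leydig (0.60) markers, a difference that was not tested. Macrophage markers had a median of 0.31 (14 measured, 0 called), with Mrc1, the mannose receptor, at 0.40 (adjusted p = 0.0612 by limma) and Cd68, a lysosomal protein, at 0.38 (adjusted p = 0.0726). Without Ing2-/- replicate 3, 4 were called higher, Mrc1 and Cd68 among them, beside 8.72% of all genes. With all arrays 13 of the 14 had a difference above 0. Aif1 went the other way (−0.26, adjusted p = 0.298 by limma), lower in every Ing2-/- array than in any Ing2+/+ array. Endothelial markers had a median of 0.21, and Kdr, a receptor of vascular endothelial growth factor, was called higher (0.49, adjusted p = 0.0367) of 10 measured. Peritubular myoid markers had a median of 0.22 (10 measured, 0 called). Among them Actg2, a smooth muscle actin, differed by −0.48 (adjusted p = 0.0879) and Smtn, smoothelin, by 0.30 (adjusted p = 0.110). Without Ing2-/- replicate 3, 3 myoid markers were called higher and 1 lower, Actg2 (−0.37, adjusted p = 0.0264). Spermatogonial markers (22 measured of 23) had a median of 0.08, and 16 of the 22 had a difference above 0. The largest was that of Kit (0.60, adjusted p = 0.107 by limma), which was not called. Sohlh2, a factor of early germ cells, was called lower (−0.31, adjusted p = 0.0471). Without that replicate 4 were called higher and 1 lower. Their means by array were highest in Ing2-/- replicate 3 for macrophage (0.51), myoid (0.41) and spermatogonial (0.21) markers, but in replicate 2 for endothelial markers (0.25).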
